A study of Arabidopsis thaliana with 64 samples.

Results

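The transcripts described here are those of 10 Arabidopsis genes of membrane lipid remodelling, out of 25410 genes with a probe on the array. They were chosen by locus: *MGD2* (AT5G20410), *MGD3* (AT2G11810), *DGD1* (AT3G11670), *DGD2* (AT4G00550), *SQD1* (AT4G33030), *SQD2* (AT5G01220), *NPC4* (AT3G03530), *NPC5* (AT3G03540), *PLDZ2* (AT3G05630) and *GDPD1* (AT3G02040). All 10 had a probe, 13 probes in all. *DGD1*, *DGD2* and *GDPD1* had 2 probes each, of which the brighter was used, and both probes of a gene moved the same way in 12 of 12 Pi comparisons, although their log2 fold changes lay up to 0.92, 0.26 and 0.93 apart. Levels are the log2 of the processed signal minus the log2 of the 75th percentile of the same array. Levels of different genes are not set against each other, because each probe has its own response.

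The arrays form 3 sets, with roots and shoots taken separately from plants on Pi-sufficient or Pi-deficient agar medium, which the labels put at 23 °C with 16 h of light per day for all samples. The study's methods instead describe uninterrupted B and R light and a slightly cooler chamber. The first set compared the mutant *hy5-215*, made by chemical mutagenesis in the gene of the light-signalling bZIP factor HY5, with WT Col-0, and the second compared *35S:BBX32-SRDX* with WT Col-0, both at 4 weeks of age under white light with 3 replicates per group and 24 arrays. In *35S:BBX32-SRDX* the B-box protein BBX32 is fused to the SRDX repression domain and driven by the 35S promoter, which is active in most tissues, and the labels do not say which transgenic line was used. The light set compared WT Col-0 seedlings of 3 weeks under blue (B) and red (R) light, with 2 replicates per group and 16 arrays. The samples that the labels of the white-light sets call leaf are called shoots here.

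When Pi runs short, plants break down phospholipids and put galactolipids and sulfolipid, which contain no phosphorus, in their place. Phospholipases C (NPC4, NPC5) and D (PLDZ2) cleave phospholipids to diacylglycerol and phosphatidic acid, and glycerophosphodiester phosphodiesterases such as GDPD1 split the deacylated head groups further. MGD2 and MGD3 make monogalactosyldiacylglycerol, DGD1 and DGD2 turn it into digalactosyldiacylglycerol, SQD1 makes the sulfoquinovose donor UDP-sulfoquinovose, and SQD2 transfers its sugar to diacylglycerol to form sulfolipid.

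The labels were first checked against the targeted genes. *HY5* read 1.53, 1.12 and 1.11 in Pi-deficient WT roots and -0.72, -0.79 and -0.89 in *hy5-215* roots, and 1.64, 1.36 and 1.45 against -0.41, -0.50 and -0.37 under Pi sufficiency. In shoots the lines overlapped (-0.28, -1.49 and -2.34 in the WT against -0.61, -1.81 and -1.80 under Pi deficiency, and -0.62, -1.76 and -1.41 against -0.86, -1.46 and -1.54 under Pi sufficiency), so *HY5* does not check the genotype there, and those arrays are called the shoots labelled *hy5-215*. *BBX32* lay between 4.35 and 6.13 on all 12 arrays of *35S:BBX32-SRDX* and between -5.92 and -3.22 on 11 of the 12 WT arrays of that set, while replicate 2 of the Pi-deficient WT roots read -1.91. All 5 shoot markers separated the organs in each set, and of the 5 root markers 4 did so, with *NRT2.1* overlapping between organs in all 3 sets. Between 68.5 and 83.7% of the spots were well above background in the white-light sets and between 45.0 and 66.7% in the light set. A bulk sample cannot tell fewer cells that express a gene from less RNA per cell.

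Arrays of the Pi-sufficient shoots differed widely within a group for these genes. In WT shoots of the *hy5-215* set, *MGD3* read 0.14 in replicate 1, -3.56 in replicate 2 and -5.84 in replicate 3, and *GDPD1* read 4.30, 1.49 and 1.29. In the shoots labelled *hy5-215*, *MGD3* read 0.94, -1.45 and -4.38, again with replicate 1 the highest. *IPS1*, a noncoding RNA that marks Pi starvation, moved the same way, at -4.33, -7.61 and -9.09 in the WT and -2.41, -4.60 and -6.15 in the shoots labelled *hy5-215*. Replicate 1 of both groups lay above its group mean for 9 of 9 genes when *NPC5* is set aside, with median deviations of 0.96 and 0.89. The same held in the Pi-deficient shoots (0.18 in the WT and 0.66 in those labelled *hy5-215*). It also held in every root group of that set (medians from 0.05 to 0.55). Within an organ the arrays of a replicate number shared a slide, and roots lay on other slides than shoots. In the WT of the *35S:BBX32-SRDX* set *MGD3* read -0.60, -1.63 and -4.44 and *IPS1* -3.68, -5.57 and -9.21. The part of the slide in these differences was not tested. Results for shoots of the *hy5-215* set are therefore also given without replicate 1 of its 4 shoot groups where that changes a call, a setting chosen after the values were seen.

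**Figure D1:**
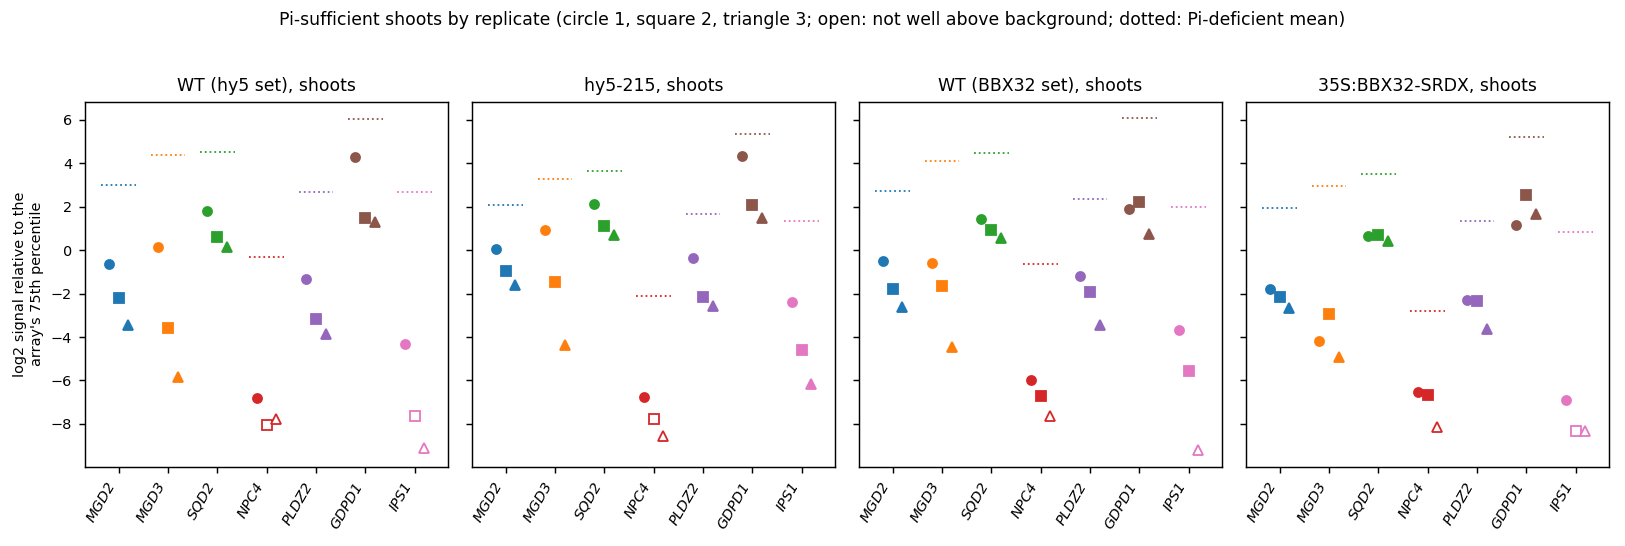
Log2 signal of 6 lipid genes and *IPS1* on each array of the Pi-sufficient shoots under white light (y axis, relative to the 75th percentile of the array), with a panel per line, a symbol per replicate, open symbols for spots not well above background and dotted lines at the means of the Pi-deficient shoots. In both panels of the *hy5-215* set replicate 1 (circle) is the highest for each of these genes, and *MGD3* of the WT spans 0.14 to -5.84.

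The first comparison asks how the genes respond to Pi deficiency in roots under white light. In both WT groups the same 7 of 10 genes rose: *MGD2*, *MGD3*, *SQD1*, *SQD2*, *NPC4*, *PLDZ2* and *GDPD1*. Over all genes 7.2% of 21009 were called in the *hy5-215* set and 5.79% of 21434 in the *35S:BBX32-SRDX* set. A gene is called changed at an adjusted p below 0.05 (limma, Benjamini-Hochberg over all genes tested) with a fold change over 2 or under 0.5, and p-values below are from that test. The median log2 fold change of the 10 genes was 2.65 and 2.38 in the 2 sets, beside 0.02 and 0.02 over all genes. In 30 of 30 pairs of a gene and a slide the Pi-deficient WT root read higher, in either set. Genes of a slide share its arrays, so these pairs are not independent replicates.

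Among the galactolipid genes, *MGD3* had the steepest rise. In WT roots of the *hy5-215* set it read -3.23, -3.51 and -3.65 under Pi sufficiency and 1.37, 1.63 and 0.98 under Pi deficiency, a 27.7-fold rise (log2 4.79, SE 0.41, adjusted p = 4.44e-05). The groups are far apart, and in the other WT the rise was 12.7-fold (log2 3.67, SE 0.30, adjusted p = 7.39e-05). *MGD2* went from -2.18, -2.70 and -2.64 to 0.45, 0.36 and 0.01, or 6.86-fold (adjusted p = 0.000361), and rose 5.55-fold (adjusted p = 5.37e-05) in the other WT. The digalactosyl synthases moved far less. *DGD1* read -0.83, -1.05 and -0.999 against -0.08, -0.14 and -0.17 (1.78-fold, adjusted p = 0.000452), without overlap between groups yet below the fold limit. *DGD2* lay just under the limit with 1.99-fold (adjusted p = 0.00165) and 1.73-fold (adjusted p = 0.00974). In the *hy5-215* set it passed with 1.08 on the log2 scale without replicate 1 of the Pi-sufficient WT and with 1.03 without replicate 3 of the Pi-deficient WT.

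Both sulfolipid genes rose. *SQD1* went from 0.13, 0.06 and -0.00301 to 2.45, 2.57 and 2.27 in WT roots of the *hy5-215* set (5.15-fold, log2 2.37, SE 0.17, adjusted p = 1.61e-05), and rose 3.41-fold in the other WT (adjusted p = 0.000103). *SQD2* went from 0.19, -0.10 and -0.14 to 2.62, 2.75 and 2.15 (5.75-fold, log2 2.52, SE 0.31, adjusted p = 0.000293), and rose 4.91-fold in the other WT (adjusted p = 1.32e-05). For both genes the spread within a group was well inside the gap between the groups.

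Of the genes of phospholipid breakdown, *PLDZ2* rose 15.3-fold and 9.62-fold in the 2 WT groups (adjusted p = 1.34e-05 and 8.65e-06), from -2.97, -3.43 and -3.51 to 0.64, 0.79 and 0.47 in the *hy5-215* set. *GDPD1* rose 9.33-fold and 6.16-fold (adjusted p = 5.78e-05 and 2.42e-05), or by 3.22 and 2.62 on the log2 scale, where its dimmer probe gave 4.10 and 3.43. *NPC4* had wider spread within its groups. In the *hy5-215* set it read -3.63, -4.96 and -5.02 against -0.53, -0.82 and -1.17 (log2 3.70, SE 0.53, adjusted p = 0.000783). In the other WT it read -2.98, -3.44 and -5.19 against -0.96, -1.13 and -1.64 (6.18-fold, adjusted p = 0.0138, and log2 2.57 with adjusted p = 0.0536 without replicate 2 of the Pi-deficient WT).

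*NPC5*, another phospholipase C of the NPC family, did not follow *NPC4*. It read -5.27, -5.46 and -5.79 against -5.07, -5.10 and -5.65 in WT roots of the *hy5-215* set (1.17-fold, 95% interval -0.20 to 0.67 on the log2 scale, adjusted p = 0.42). In the *35S:BBX32-SRDX* set it read -5.49, -5.01 and -4.93 against -4.24, -4.24 and -4.30, which passed the adjusted p but not the fold limit (1.85-fold, adjusted p = 0.00721).

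Roots of the lines were compared in the same way. In *hy5-215* 7 of 10 genes rose, the same as in the WT, with 3.54% of all genes called, and in *35S:BBX32-SRDX* 6 of 10 rose, all but *NPC4* of these, with 3.37% of all genes called. The medians were 2.03 and 1.43, beside -0.02 and 0.02 over all genes. *MGD3* rose 18.2-fold in *hy5-215* and 6.91-fold in *35S:BBX32-SRDX*, *PLDZ2* 6.77-fold and 5.49-fold, and *SQD1* 3.21-fold and 2.35-fold (adjusted p from 0.000118 to 0.00181). *GDPD1* rose 4.36-fold and 3.28-fold, *SQD2* 3.91-fold and 2.83-fold, and *MGD2* 4.29-fold and 3.41-fold (adjusted p from 0.000351 to 0.00426). The dimmer *GDPD1* probe gave log2 values of 3.06 and 2.39 in place of 2.12 and 1.71. *NPC4* gave 6.05-fold in *hy5-215* (adjusted p = 0.0118). In *35S:BBX32-SRDX* it read -3.27, -4.13 and -5.21 under Pi sufficiency and -2.80, -2.54 and -3.19 under Pi deficiency (2.56-fold, log2 1.36, SE 0.58, adjusted p = 0.236, and 0.0254 in a blocked fit, that is one with a term for the slide). *NPC5* gave 1.34-fold (adjusted p = 0.199) and 1.14-fold (adjusted p = 0.658).

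**Figure D2:**
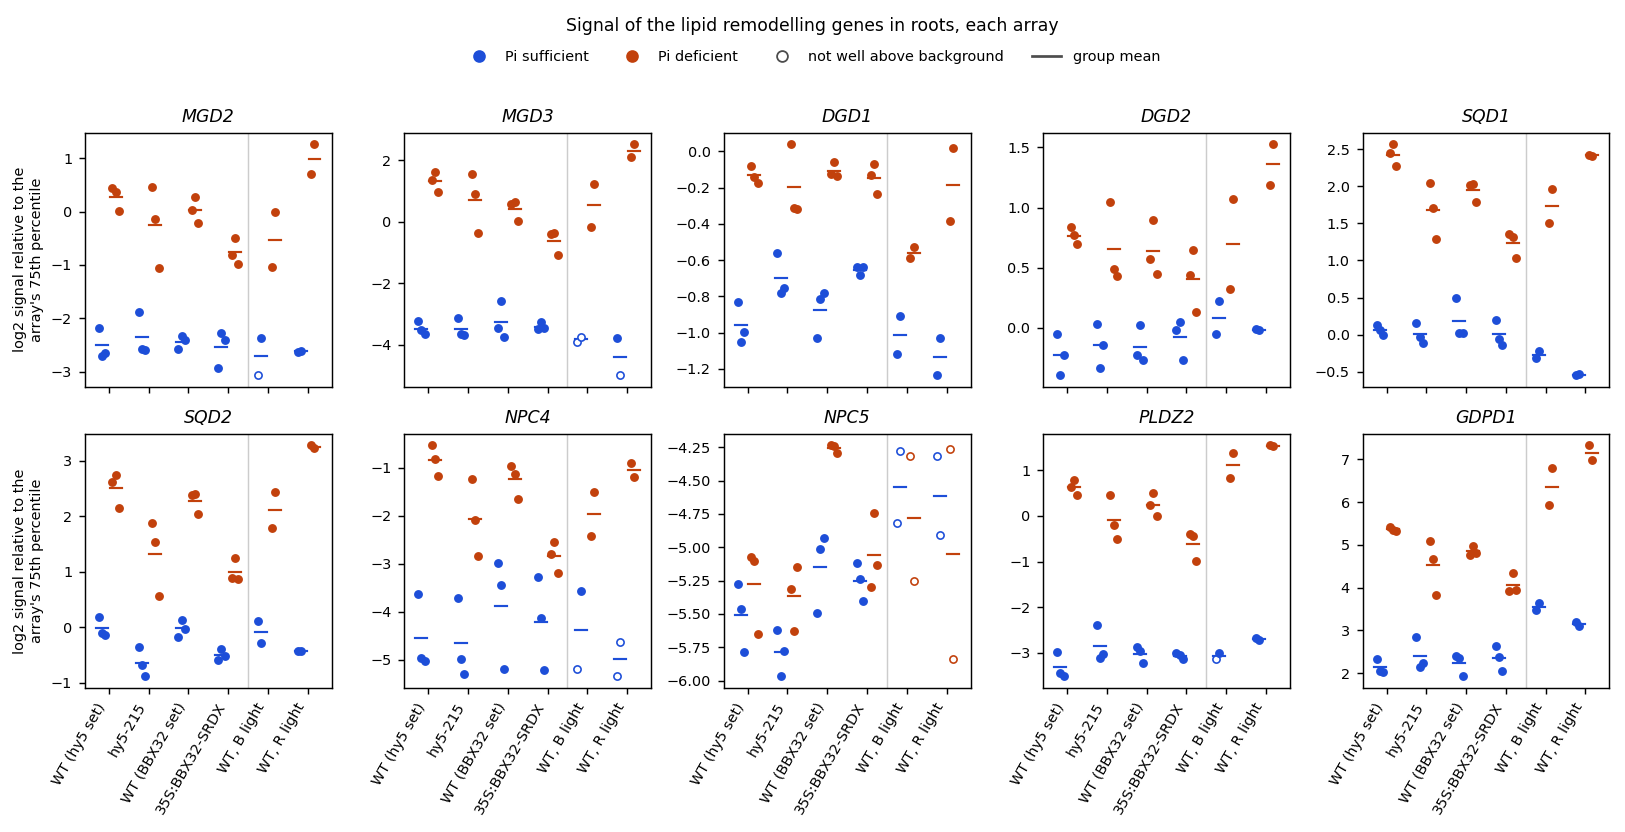
Log2 signal of each gene on every root array (y axis, relative to the 75th percentile of the array), by line or light and Pi supply, with open symbols for spots not well above background. *MGD3* in the WT of the *hy5-215* set lies between -3.65 and -3.23 under Pi sufficiency and between 0.98 and 1.63 under Pi deficiency, while *NPC5* of the same roots lies between -5.79 and -5.07 over both media.

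In shoots the same question was asked of the WT groups. All genes but *NPC5* rose in the *hy5-215* set, 9 of 10 against 7.4% of 20479 genes, and all but *NPC5* and *DGD2* in the *35S:BBX32-SRDX* set, 8 of 10 against 7.83% of 20460. The median log2 fold change was 3.69 and 3.93, beside -0.04 and -0.09 over all genes. Without replicate 1 of all 4 shoot groups the *hy5-215* set gave 8 of 10 and a median of 4.30.

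*NPC4* rose steeply in shoots. In the *hy5-215* set it read -6.83, -8.07 and -7.78 under Pi sufficiency, with 1 of the 3 arrays well above background, and 0.46, -0.78 and -0.58 under Pi deficiency (153-fold, log2 7.26, SE 0.58, adjusted p = 7.2e-05). In the *35S:BBX32-SRDX* set the WT read -5.98, -6.72 and -7.62, with 2 of 3 arrays well above background, against 0.20, -0.91 and -1.21 (70.1-fold, adjusted p = 0.00011). The groups lie far apart in each set, but the size of the rise depended on the setting. With normexp, a model-based background correction, it was 5.07 and 4.36 on the log2 scale in place of 7.26 and 6.13. That setting also adds an offset of 50 to each spot, which by itself shrinks a rise from a dim group. The parts of the correction and of the offset were not tested. *NPC5* in the same shoots read -6.03, -5.95 and -6.08 against -6.45, -6.16 and -6.24 (log2 -0.26, 95% interval -0.78 to 0.26, adjusted p = 0.481), and gave -0.04 with an interval of -0.81 to 0.73 in the other WT (adjusted p = 0.945).

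*PLDZ2* rose by 5.46 and 4.53 on the log2 scale (adjusted p = 0.001 and 0.000525). *GDPD1* rose 12.9-fold (adjusted p = 0.0182) and 21.9-fold (adjusted p = 0.000167). The first of these was no longer called without replicate 2 (adjusted p = 0.0738) or 3 (0.0616) of the Pi-sufficient WT or replicate 1 of the Pi-deficient WT (0.0581), or with only the groups compared in the fit (0.053), and its dimmer probe gave 4.48 on the log2 scale in place of 3.69.

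*MGD3* went from 0.14, -3.56 and -5.84 to 4.56, 4.13 and 4.47 in WT shoots of the *hy5-215* set. The Pi-deficient arrays are close to each other and the Pi-sufficient ones are not, so the fold change of 178 has a wide interval (log2 7.47, 95% interval 4.12 to 10.83, adjusted p = 0.00869). In the other WT the rise was 80.3-fold (log2 6.33, SE 0.83, adjusted p = 0.000979). *MGD2* rose by 5.13 on the log2 scale (SE 0.64, adjusted p = 0.000924) and by 4.39 (adjusted p = 0.000206). *DGD1*, below the fold limit in roots, was called in shoots with 4.14-fold and 3.51-fold (adjusted p = 0.00395 and 0.00528). *DGD2* lay at the limit in both sets. It rose 2.09-fold in the first (adjusted p = 0.00485), where the log2 value was 0.90 without replicate 1 of the Pi-deficient WT and 0.94 without replicate 1 of all 4 groups, and 0.97 with the authors' values. In the second it stood at 1.97-fold (adjusted p = 0.00122), and was called without replicate 2 (log2 1.003) or 3 (1.07) of the Pi-deficient WT.

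The sulfolipid genes rose in both sets as well. *SQD1* read 3.02, 2.61 and 2.48 against 5.60, 5.51 and 5.67 in the *hy5-215* set (7.43-fold, SE 0.19 on the log2 scale, adjusted p = 2.85e-05), and rose 4.7-fold in the other WT (adjusted p = 2.39e-05). *SQD2* rose 12.9-fold and 11.1-fold (adjusted p = 0.00151 and 7.87e-06).

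In the shoots labelled *hy5-215* 5 of 10 genes rose, with 1.53% of all genes called, and in shoots of *35S:BBX32-SRDX* 7 of 10 rose, with 2.81% of all genes called. The first count was 2 with dim probes kept in, 2 with only the groups compared in the fit and 3 when arrays were scaled on the median of their detected probes. The medians were 2.53 and 3.19, beside -0.04 and -0.06 over all genes. *NPC4* rose 49-fold in the shoots labelled *hy5-215*, with 1 of 3 Pi-sufficient arrays well above background, and 19.9-fold in *35S:BBX32-SRDX*, with 2 of 3 (adjusted p = 0.00153 and 0.00187). With normexp these rises were 3.45 and 2.88 on the log2 scale in place of 5.61 and 4.31. *SQD1* rose 3.15-fold and 3.8-fold. In *35S:BBX32-SRDX* *MGD3* rose 124-fold, *MGD2* 17.8-fold, *PLDZ2* 17.3-fold, *GDPD1* 10.8-fold and *SQD2* 7.67-fold (adjusted p from 7.03e-05 to 0.00209), and the log2 value of *MGD3* went from 6.96 to 6.33 with normexp.

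In the shoots labelled *hy5-215* the calls of *PLDZ2* (10.2-fold, adjusted p = 0.0399), *SQD2* (5.1-fold, 0.0456) and *MGD2* (7.54-fold, 0.0475) lay near the limit of the test. Their log2 values ran from 2.91 to 4.01, 1.995 to 2.76 and 2.53 to 3.36 with single arrays left out, while the adjusted p exceeded 0.05 in most cases. *MGD2* lost its call when any of the 6 arrays compared was left out (adjusted p from 0.0545 to 0.179), *PLDZ2* in 5 of 6 cases (all but Pi-sufficient replicate 1, adjusted p from 0.0855 to 0.156) and *SQD2* in 4 (replicates 2 and 3 under Pi sufficiency, 1 and 2 under Pi deficiency, adjusted p from 0.127 to 0.172). *MGD3* (30.3-fold, adjusted p = 0.128), *GDPD1* (6.5-fold, 0.147) and *DGD1* (2.22-fold, 0.123) were called only in the blocked fit (adjusted p = 0.0147, 0.0141 and 0.00197), *GDPD1* also without replicate 1 of all 4 groups (log2 3.17, adjusted p = 0.0161). *DGD1* of *35S:BBX32-SRDX* was likewise called only in that fit (2.08-fold, adjusted p = 0.13, and 0.00572).

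**Figure D3:**
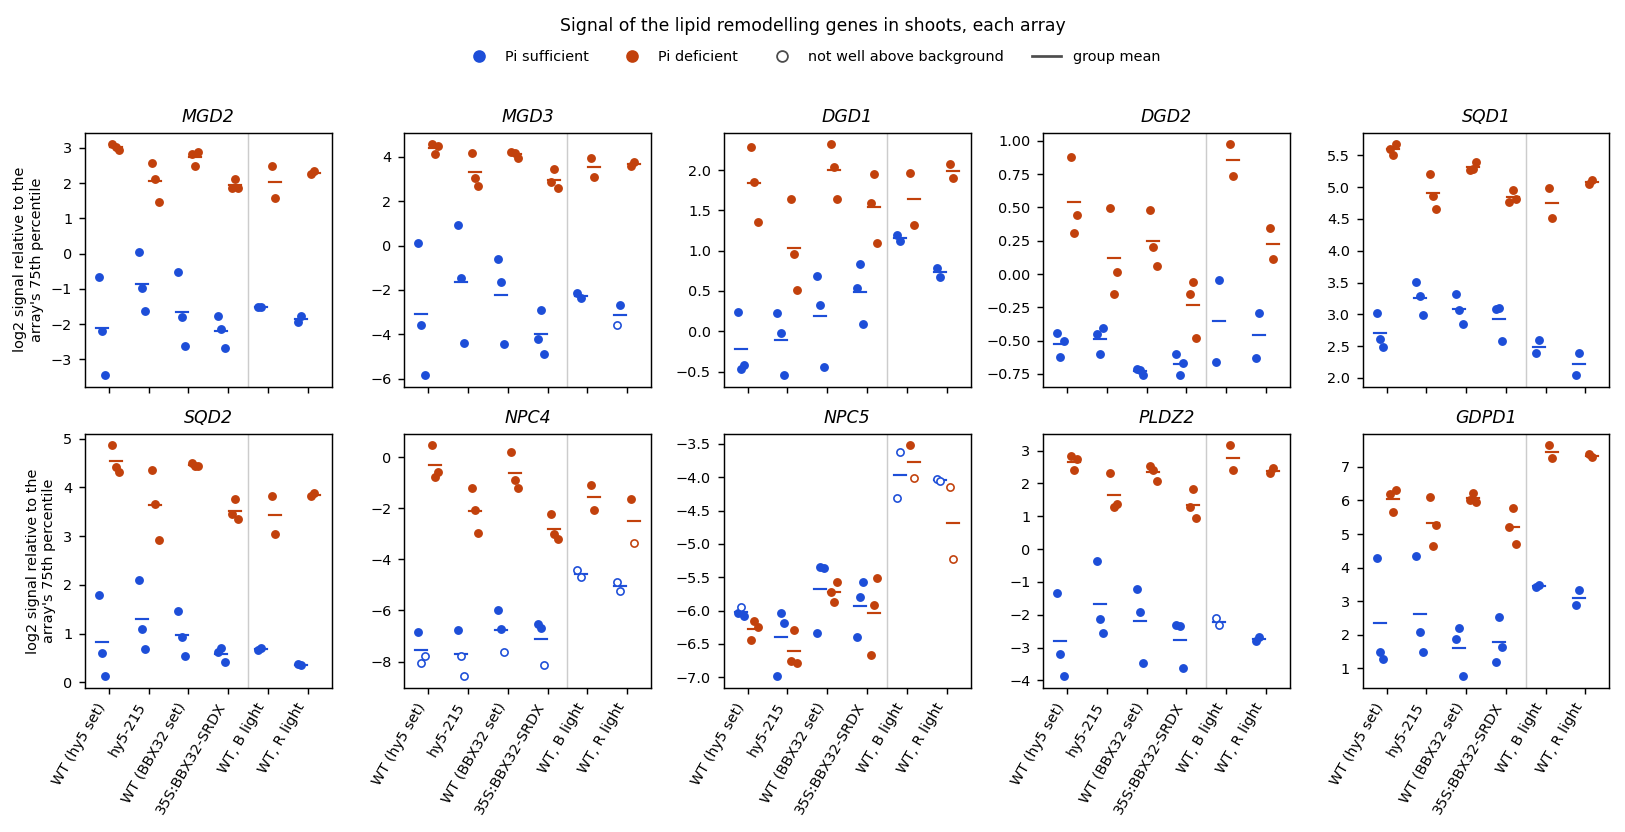
Log2 signal of each gene on every shoot array (y axis, relative to the 75th percentile of the array), by line or light and Pi supply, with open symbols for spots not well above background. *SQD1* of the WT of the *hy5-215* set lies between 2.48 and 3.02 under Pi sufficiency and between 5.51 and 5.67 under Pi deficiency, while *MGD3* of the same Pi-sufficient arrays spans 0.14 to -5.84.

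Whether the WT responded alike in roots and shoots was tested in a fit over all arrays of a set. Organs lay on different slides, so organ and slide cannot be told apart in the levels. Each Pi response is measured within slides, where Pi supply and place on the slide cannot be told apart. The response of roots was the smaller one for 9 of 10 genes in either set, and for 8 in the *hy5-215* set with quantile normalization or the authors' values. The difference passed an adjusted p of 0.05, with no fold limit, for 2 genes in the *hy5-215* set, against 11.5% of 21774 genes, and for 4 in the *35S:BBX32-SRDX* set, against 11.8% of 22015. The medians were -1.20 and -1.22, beside 0.04 and 0.07 over all genes.

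*NPC4* passed in both sets, with -3.56 (SE 0.83, adjusted p = 0.0102) and -3.50 (SE 0.85, adjusted p = 0.0122) on the log2 scale. Only 1 of 3 and 2 of 3 of its Pi-sufficient shoot arrays were well above background. With normexp, whose offset shrinks rises from dim groups, neither passed (-1.76, adjusted p = 0.0786, and -2.07, adjusted p = 0.0618). *DGD1* had -1.22 (adjusted p = 0.0444) and -1.04 (0.0602), and the first was lost in 10 of 12 fits with an array left out (adjusted p up to 0.115, without replicate 1 of the Pi-deficient shoots) and with the authors' values (0.0599), median scaling (0.0564), dim probes kept in (0.0551) or only the groups compared (0.0657). *MGD2* had -2.35 (adjusted p = 0.0542) and -1.92 (0.0196, and 0.0557 without replicate 3 of the Pi-deficient roots, and 0.0717 with only the groups compared). *SQD2* had nearly the same difference in both, -1.17 (adjusted p = 0.245) and -1.18 (0.00573). *GDPD1* had -0.47 (adjusted p = 0.808) and -1.83 (0.02, and 0.051 and 0.0529 without replicate 3 of the Pi-sufficient shoots or replicate 1 of the Pi-sufficient roots). With quantile normalization the latter was -1.21 (adjusted p = 0.0932), and it was lost with normexp (0.0576) and the mean of probes (0.088). *MGD3* had -2.68 (adjusted p = 0.323) and -2.66 (0.0701), and *PLDZ2* -1.52 (0.225) and -1.27 (0.163). *SQD1* had -0.53 and -0.46 and *DGD2* -0.08 and -0.19, and neither passed.

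In the blocked fit, for which no share of all genes is given here, 6 and 8 genes passed. Those added were *MGD2*, *SQD1*, *SQD2* and *PLDZ2* (adjusted p = 0.00235, 0.0321, 0.00726 and 0.0226) in the *hy5-215* set. In the *35S:BBX32-SRDX* set they were *MGD3*, *DGD1*, *PLDZ2* and *NPC5* (adjusted p = 0.0121, 0.000806, 0.0166 and 0.0169), the last with the response of roots higher by 0.93. The same 4 passed without replicate 1 of the Pi-sufficient shoots (adjusted p = 0.0139, 0.0221, 0.047 and 0.0393). In the *hy5-215* set *MGD2*, *MGD3* and *PLDZ2* passed without replicate 1 of the Pi-sufficient shoots (adjusted p = 0.00567, 0.0474 and 0.0334), and 5 genes passed without replicate 1 of all 4 shoot groups.

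**Figure D4:**
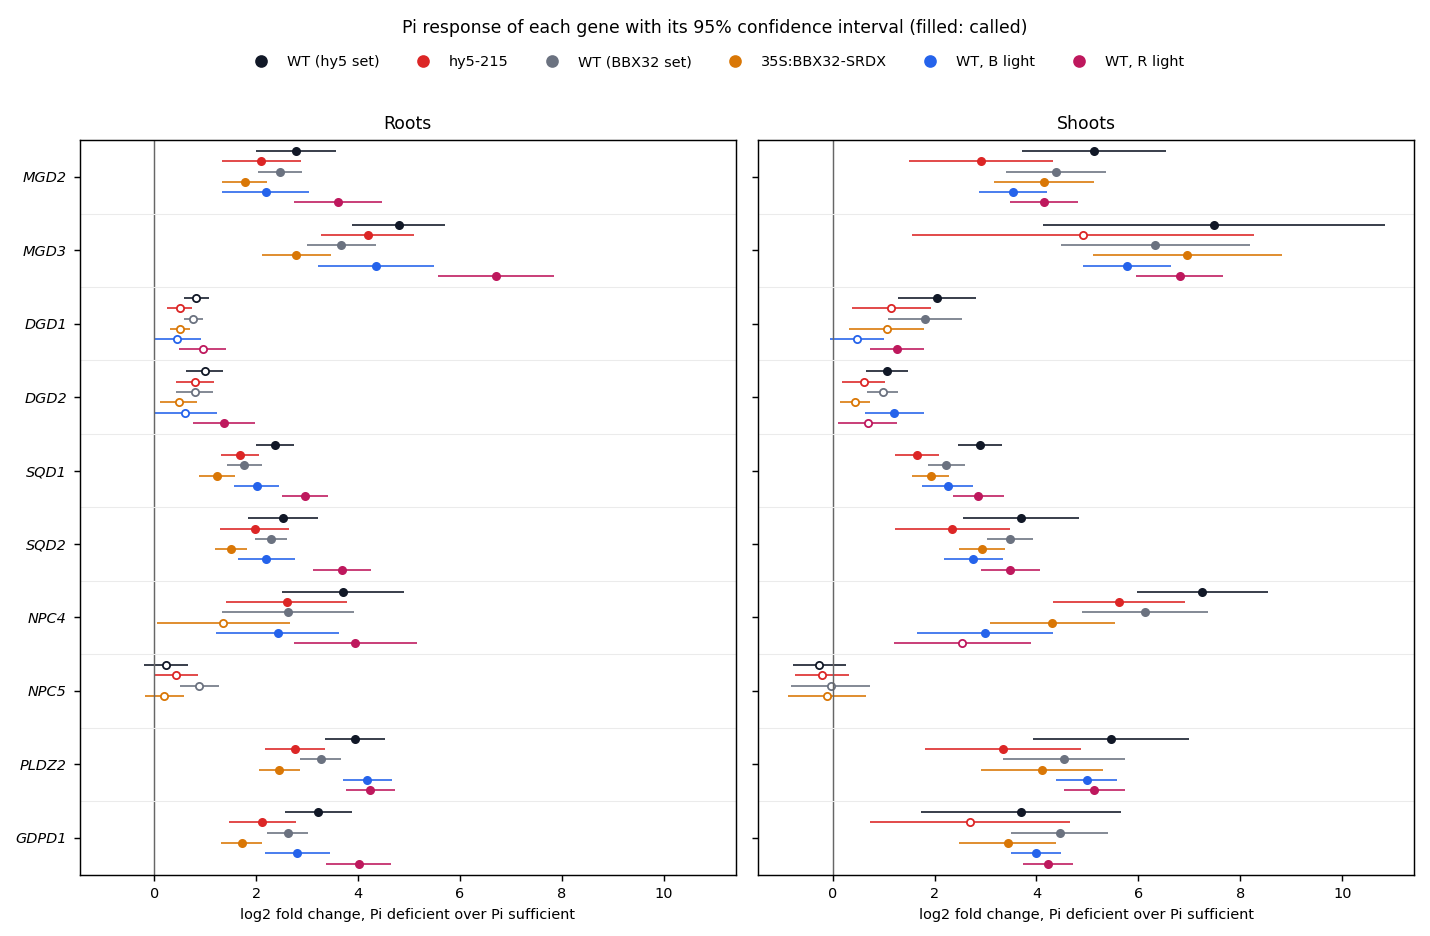
Log2 fold change of each gene in Pi-deficient over Pi-sufficient roots and shoots (x axis), with 95% confidence intervals from limma, a colour per line or light and filled symbols for called changes. *SQD1* and *SQD2* are called in each of the 12 comparisons and *NPC5* in 0 of 8. Where a group was not well above background the point is a fitted value and not a bound.

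The next comparison set the lines against the WT on the same medium. Under Pi deficiency all 10 genes read lower in both lines and both organs, that is in 40 of 40 differences, with the exception under normexp of *NPC5* in shoots of *35S:BBX32-SRDX* (0.76), while under Pi sufficiency both directions occurred. Genes of a comparison share their arrays, and few of the differences passed the test. In roots *SQD2* was the 1 gene of 10 called in *hy5-215*, where 6.11% of all genes were called, and also the 1 called in *35S:BBX32-SRDX*, where 5.31% were. In shoots 0 of 10 were called by limma in either, against 0.117% and 0.0978% of all genes. There 4 and 4 of the 10 had an unadjusted p below 0.05, as did 1370 of 20479 and 2247 of 20460 genes over all. The medians of the 10 genes were -0.67 and -0.80 in roots and -0.84 and -0.81 in shoots, beside -0.01, 0.03, 0.00 and 0.03 over all genes.

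*SQD2*, the last enzyme of sulfolipid synthesis, read 2.62, 2.75 and 2.15 in Pi-deficient WT roots and 1.88, 1.54 and 0.56 in *hy5-215* (log2 -1.18, SE 0.31, 0.441 of the WT, adjusted p = 0.0228). The groups do not overlap, although replicate 3 of *hy5-215* is far below the others. Without that array the difference was -0.80 and under the fold limit, and without replicate 1 or 2 of the WT the adjusted p was 0.0672 or 0.0829. With only the groups compared in the fit it was 0.0793. In *35S:BBX32-SRDX* roots *SQD2* read 0.89, 1.25 and 0.88 against 2.38, 2.40 and 2.04 in the WT (log2 -1.27, SE 0.14, 0.414 of the WT, adjusted p = 0.000431). This call held without each of the 6 arrays, including the WT array with the high *BBX32*. Within the slides the differences were -1.50, -1.15 and -1.17.

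Beside *SQD2*, in *35S:BBX32-SRDX* roots *MGD2*, *SQD1*, *NPC5*, *PLDZ2* and *GDPD1* passed the adjusted p (0.0128 to 0.0259) but not the fold limit, with log2 differences of -0.80, -0.71, -0.80, -0.86 and -0.78. In *hy5-215* roots *SQD1* did so (-0.74, adjusted p = 0.0114), and *GDPD1* (-0.83, adjusted p = 0.0766) was called with -1.11 (adjusted p = 0.0244) without replicate 1 of *hy5-215*. *DGD1* and *DGD2* were shifted the least in roots, at -0.07 and -0.11 in *hy5-215* (95% intervals -0.31 to 0.17 and -0.48 to 0.25) and -0.04 and -0.23 in *35S:BBX32-SRDX*, together with *NPC5* of *hy5-215* at -0.09 (-0.52 to 0.35).

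*NPC4* had the lowest value of the 10 genes in each of the 4 comparisons. It gave -1.60 (SE 0.58, adjusted p = 0.123) in roots and -2.16 (SE 0.55, adjusted p = 0.2) in shoots of *35S:BBX32-SRDX*, and -1.22 (adjusted p = 0.152) and -1.79 (0.444) in roots of *hy5-215* and the shoots labelled so. In Pi-deficient shoots it read 0.20, -0.91 and -1.21 in the WT and -2.24, -2.99 and -3.18 in *35S:BBX32-SRDX*, which do not overlap. In the blocked fit all 4 differences of *NPC4* were called (adjusted p = 0.0102, 0.0122, 0.00401 and 0.0155 in that order), as was *MGD3* in *35S:BBX32-SRDX* roots (log2 -1.03, adjusted p = 0.057, and 0.0053 with the block). The block raised the calls under Pi deficiency from 2 to 7 of 40, and those past the adjusted p from 8 to 18. No share of all genes is given for the blocked fit to set beside these counts.

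Within slides, under Pi deficiency, the line read lower than the WT in 25 of 30 pairs of a gene and a slide for *hy5-215* roots, 30 of 30 for *35S:BBX32-SRDX* roots, 30 of 30 for the shoots labelled *hy5-215* and 29 of 30 for *35S:BBX32-SRDX* shoots. These pairs are not independent, because the genes share the arrays of a slide. Each group had the same place on its slides in every set. Line, Pi supply and light therefore cannot be told apart from place. Under Pi sufficiency limma called 0 of the 10 genes in a line. The share of all genes called was 5.12% in *hy5-215* roots, 0.718% in *35S:BBX32-SRDX* roots, 0.0439% in the shoots labelled *hy5-215* and 0.0244% in *35S:BBX32-SRDX* shoots. In that order 1, 2, 1 and 0 of the 10 genes had an unadjusted p below 0.05. Over all genes 5483 of 21009, 2470 of 21434, 478 of 20479 and 796 of 20460 had one. The medians were 0.03 and -0.10 in roots and 0.37 and -0.30 in shoots, where the spread of the Pi-sufficient arrays described above applies.

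The difference between the Pi response of a line and that of the WT was tested as an interaction. By limma 0 of the 10 genes passed in roots of *hy5-215* (0.543% of all genes passed) or *35S:BBX32-SRDX* (0.07%), or in shoots of either set, where 0% of all genes passed. At an unadjusted p below 0.05 there were 3 and 6 of the 10 genes in roots, beside 2178 of 21009 and 1263 of 21434 over all genes. In shoots there were 2 and 2, beside 648 of 20479 and 479 of 20460. The value was lower in the line in 37 of 40 cases, which are not independent because the genes share their arrays. The medians were -0.64 and -0.75 in roots and -1.29 and -0.48 in shoots. Over all genes they were -0.03, -3.1e-05, 0.01 and 0.03 in that order. The lowest in roots were *PLDZ2* at -1.18 (SE 0.38, adjusted p = 0.269) in *hy5-215* and *NPC4* at -1.27 (SE 0.82, adjusted p = 1) in *35S:BBX32-SRDX*. In the blocked fit *PLDZ2* of *hy5-215* (adjusted p = 0.043) and *SQD2* of *35S:BBX32-SRDX* (log2 -0.79, adjusted p = 0.302, and 0.0475 with the block) passed.

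**Figure D5:**
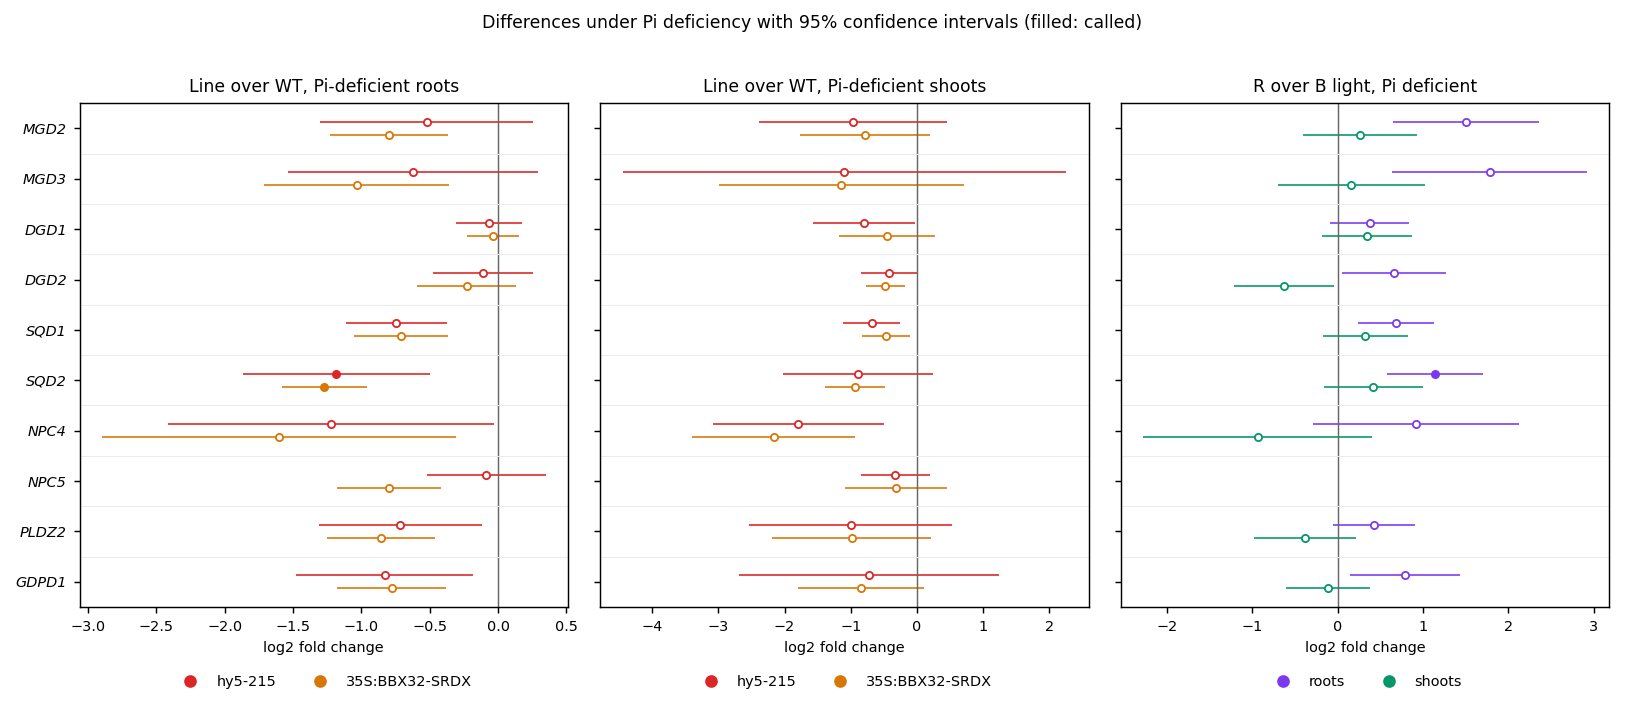
Log2 difference in level under Pi deficiency for each line against the WT in roots and shoots, and for R against B light (x axes), with 95% confidence intervals from limma and filled symbols for called differences. All points of the lines lie below 0 (with normexp *NPC5* in shoots of *35S:BBX32-SRDX* would not), and *SQD2* is the gene called in roots of *hy5-215* (-1.18), in roots of *35S:BBX32-SRDX* (-1.27) and, in the other direction, in roots under R light (1.14).

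The light set asks whether the colour of light bears on the Pi response. *NPC5* was not well above background on both arrays of any group there and was not tested. In roots 7 of the other 9 genes rose under B light, with 6.23% of 17840 genes called, and 8 of 9 under R light, with 2.91% called. The count under B light was 3 with the authors' values, where *MGD2*, *SQD1*, *SQD2* and *NPC4* were lost (adjusted p = 0.0921, 0.201, 0.0611 and 0.166). It was 5 with normexp, with dim probes kept in or with only the groups compared, where *MGD2* and *NPC4* were lost. In shoots 8 of 9 rose under B light, with 20.2% of 16477 genes called, and 7 of 9 under R light, with 4.38% called. Those under B light include *NPC4*, called on a fitted value whose bound lay below the fold limit. The median log2 fold change was 2.20 under B and 3.68 under R light in roots, and 2.99 and 3.49 in shoots, beside -0.08, -0.06, -0.04 and -0.03 over all genes.

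Root levels of *MGD3* under R light were -3.78 and -4.98 with Pi, where 1 of 2 arrays was well above background, and 2.12 and 2.52 under Pi deficiency (104-fold, log2 6.70, SE 0.50, adjusted p = 0.00029). Under B light neither Pi-sufficient array was well above background (-3.89 and -3.73), and the rise to -0.16 and 1.24 was at least 17.8-fold (adjusted p = 0.00222). Such a bound takes, for each dim array, the higher of its own signal and the weakest signal of a spot well above background. An adjusted p given beside a bound, here or below, is that of the fitted values and does not test the bound. *MGD2* rose 4.56-fold under B and 12.1-fold under R light, *SQD1* 4.02-fold and 7.79-fold, *SQD2* 4.59-fold and 12.8-fold, and *GDPD1* 7.01-fold and 16.1-fold (adjusted p from 0.000207 to 0.0116).

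*PLDZ2* gave nearly the same value under both lights in roots, 18.1-fold and 18.9-fold, with a difference of 0.06 on the log2 scale (95% interval -0.62 to 0.75). *NPC4* rose 5.36-fold under B light (adjusted p = 0.0294, and 0.105 and 0.0688 without Pi-deficient replicate 2 or Pi-sufficient replicate 1). Under R light it rose at least 8.52-fold (adjusted p = 0.0059, and 0.0692 and 0.0516 without Pi-deficient or Pi-sufficient replicate 1). *DGD2* was called under R light (2.59-fold, adjusted p = 0.0331), a call lost without any of the 4 arrays (adjusted p from 0.108 to 0.203), and not under B light (1.53-fold, adjusted p = 0.205). Under B light *MGD2*, *PLDZ2* and *NPC4* were well above background on 1 of the 2 Pi-sufficient root arrays. With an array left out, the lone array of its group is assumed to vary like the other groups. The *DGD2* call was also lost with the authors' values (adjusted p = 0.816), normexp (0.0615), dim probes kept in (0.143) and the mean of probes (0.0586).

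Normexp gave smaller rises of *MGD3*, *PLDZ2*, *MGD2* and *NPC4* in the light set, below the bounds given here, which hold for the scanner's own background correction. The 75th percentile of the processed signal was 79.2 to 266 on these arrays, so the offset of 50 in that setting by itself shrinks rises from dim groups. Its part in the smaller rises was not tested. On the log2 scale *MGD3* then rose by 1.69 under B and 3.81 under R light, and *PLDZ2* by 1.87 and 2.63. *MGD2* had 0.71 (adjusted p = 0.244) and 2.11, and *NPC4* 0.34 (adjusted p = 0.505) and 1.15. In shoots the values with normexp were 3.86 and 4.29 for *MGD3*, 2.18 and 2.53 for *MGD2*, 3.07 and 2.78 for *PLDZ2*, and 0.41 for *NPC4* under B light (adjusted p = 0.166).

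In shoots under B and R light *MGD3* rose 54.7-fold and 112-fold, *MGD2* 11.7-fold and 17.7-fold, *GDPD1* 15.9-fold and 18.8-fold, *SQD2* 6.77-fold and 11.2-fold and *SQD1* 4.79-fold and 7.27-fold (adjusted p from 0.000129 to 0.00119). *MGD3* was well above background on 1 of the 2 Pi-sufficient arrays under R light. *PLDZ2* rose at least 31.7-fold under B light, where neither Pi-sufficient array was well above background, and 35.1-fold under R light. *NPC4* was not well above background in the Pi-sufficient shoots of either light. Under B light it was called on its fitted log2 value of 2.99 (adjusted p = 0.00768), a call lost without Pi-deficient replicate 1 (log2 2.49). As a bound, this rise was at least 1.83-fold, which is below the fold limit. Under R light *NPC4* was well above background on 1 of the 2 Pi-deficient arrays and was not called (adjusted p = 0.0506, 0.0165 in the blocked fit and 0.0124 without Pi-deficient replicate 2).

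The digalactosyl synthases of the shoots were called under different lights. *DGD1* was called under R light (2.39-fold, adjusted p = 0.0271) and not B light (1.4-fold, adjusted p = 0.133), and *DGD2* under B light (2.31-fold, adjusted p = 0.00982) and not R light (1.61-fold, adjusted p = 0.135). *DGD1* lost its call without any of the 4 arrays (adjusted p from 0.0524 to 0.149, log2 1.17 to 1.34), with the authors' values (adjusted p = 0.0804) and with dim probes kept in (0.0722), and *DGD2* without replicate 1 of the Pi-deficient (adjusted p = 0.0626) or the Pi-sufficient group (log2 0.90) and with normexp (log2 0.76). The dimmer *DGD1* probe gave 1.19 under B and 1.39 under R light on the log2 scale, in place of 0.48 and 1.25. The difference between the lights passed for neither gene, as given below.

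R light was then set against B light on the same medium. In Pi-deficient roots all 9 genes read higher under R light (*DGD1* at -0.025 with the mean of its probes), with a median of 0.79 beside 0.07 over all genes, and *SQD2* was the 1 gene called, where 5.63% of all genes were. *SQD2* read 1.79 and 2.43 under B and 3.28 and 3.23 under R light (2.21-fold, log2 1.14, SE 0.24, adjusted p = 0.031). The groups do not overlap, yet replicate 1 under B light was lower than replicate 2 for each of the 9 genes. Without B replicate 1 the difference of *SQD2* was 0.82 (adjusted p = 0.121), and without R replicate 1 or 2 the adjusted p was 0.115 or 0.144. The call was also lost with the authors' values (log2 1.05, adjusted p = 1) and with dim probes kept in (adjusted p = 0.118). Within the slides *SQD2* differed by 1.48 and 0.80.

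*MGD2* read -1.04 and -0.01 against 0.70 and 1.26 in the same roots (2.84-fold, adjusted p = 0.0512, and 0.00739 in the blocked fit). Without B replicate 2, *MGD2*, *MGD3*, *DGD2* and *GDPD1* were called beside *SQD2* (log2 2.02, 2.49, 1.04 and 1.22), so that the count ran from 0 to 5 with single arrays left out. Within the slides 19 of 20 differences were above 0, *NPC5* included, but the genes share the arrays of a slide.

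The other comparisons of the lights gave 0 calls among the 9 genes by limma. The share of all genes called was 0.325% in Pi-sufficient roots, 9.58% in Pi-deficient shoots and 0.267% in Pi-sufficient shoots. In that order 0, 1 and 1 of the 9 had an unadjusted p below 0.05. Over all genes 1457 of 17840, 5325 of 16477 and 2761 of 16477 had one. The difference between the Pi responses under R and B light passed for 0 of the 9 in roots (1.19% of all genes) and shoots (1.56%). An unadjusted p below 0.05 was found for 5 of the 9 in roots, beside 2320 of 17840 over all genes. In shoots it was found for 1, beside 3149 of 16477. Over all genes the median of this difference was 0.04 in roots and 0.01 in shoots. For the genes described here, which share their arrays, it was above 0 for 9 of 9 in roots and 7 of 9 in shoots, with exceptions in other settings. *PLDZ2* in roots was -0.031 with quantile normalization, and 4 genes were below 0 in shoots with the authors' values. *MGD3* had 2.36 in roots (SE 0.70, adjusted p = 0.186), with its Pi-sufficient arrays under B light not well above background. *SQD2* had 1.48 (SE 0.34, adjusted p = 0.102), and 1.80 (adjusted p = 0.046) without B replicate 2 of the Pi-deficient roots.

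Across the 12 Pi comparisons 86 of 116 tests of these genes were called, and all of these were rises. *MGD2*, *SQD1*, *SQD2* and *PLDZ2* were called in 12 of 12, *MGD3* and *GDPD1* in 11, *NPC4* in 10, and *DGD1* and *DGD2* in 3 each. For *NPC4* in shoots under B light the bound on the rise lay below the fold limit. Over the 12 group means of an organ, the 36 pairs of genes without *NPC5* correlated with Pearson's r from 0.661 to 0.991 in roots and 0.781 to 0.996 in shoots, while the 9 pairs with *NPC5* gave 0.00 to 0.34 and -0.26 to 0.28. These are descriptions, since the group means differ mainly in Pi supply and share slides and sets. Those of *NPC5* include the light set, where no group had it well above background on both arrays, which limits its correlations. Over all 24 group means the 5 other genes with a profile most like the mean standardised profile of the 10 were *PAP17* (r = 0.98), *VTC4* (0.97), *SPX3* (0.97), AT5G20790 (0.96) and AT1G67600 (0.96) among 22200 genes. *NPC5* had r = 0.11 with that mean, of which it is a part, with the same limit from the light set.

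Of 25 other genes of lipid turnover that were listed, 23 had a probe. Between 2 and 8 of them rose in each Pi comparison and 0 fell, where between 1.53% and 20.2% of all genes were called. *PECP1* and *PS2*, phosphatases that act on phosphocholine and phosphoethanolamine, rose in 12 of 12 comparisons, by 4.74 to 10.37 and 2.99 to 8.40 on the log2 scale. *UGP3*, which supplies UDP-glucose for sulfolipid synthesis in the plastid, rose in 10 of 12, and the phosphodiesterase genes *GDPD3* and *GDPD6* in 9 of 12 and 7 of 10. In Pi-deficient roots 3 of the 23 were lower in *35S:BBX32-SRDX* and 0 in *hy5-215*, where 5.31% and 6.11% of all genes were called. Of the former, *PECP1* had -3.22 (adjusted p = 0.00197) and *PS2* -1.47 (adjusted p = 0.000928).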

How the data were processed

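Total RNA of roots and shoots was hybridised in 1 colour (Cy3) to Agilent arrays, 64 in all. The deposited scanner files hold spot intensity values made with Agilent Feature Extraction, 11.5.1.1 in the headers of the *hy5-215* and light sets and 9.1.3.1 in those of the *35S:BBX32-SRDX* set, while the submitters' processing notes name 9.1.3.1 for all. The authors also deposited a table of processed values on a natural log scale, which for the white-light arrays is the log of the same processed signal minus a constant per array. It served as an alternative, and how it was made is not given in the sources used here. Of 43603 probes, 34348 (78.8%) matched 25410 genes through the probe annotation.

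From the processed intensity, log2 values minus the log2 of the 75th percentile of each array were computed, control spots were left out, and the brightest probe stood for a gene. Genes were tested where every array of some group in the fit read well above background. Comparisons were fitted with limma 3.58.1 in R 4.3.3 by set and organ, with all groups sharing the estimate of spread, and the organ comparison over all arrays of a set. The fits were checked on simulated data with independent arrays, a setting that cannot show the effect of shared slides. P-values were adjusted over all genes tested. Replicates are biological replicates according to the study's methods. Exact permutation of 3 against 3 arrays cannot go below 0.1, so single genes were tested with limma alone. The number of arrays limits the precision.

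The replicate number equals the slide in every set. In the white-light sets deviations of same-numbered arrays from their group means correlated for every pair, with a lowest r of 0.279 and 0.342 in roots and shoots of the *hy5-215* set and 0.139 and 0.317 in those of the *35S:BBX32-SRDX* set, so a fit with a term for the slide (the blocked fit) is given where it changes a call. In the light set the lowest r was 0.02 and 0.08. There it is given because a slide is a batch. Shares of all genes are given only for the fit without the slide term, on all arrays. Counts in the blocked fit or another alternative therefore have no share of all genes beside them.

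The 10 genes, the other lipid genes and the organ markers were chosen with earlier results of these data known. All 10 genes are named whether called or not. Of the other lipid genes, those called in the most Pi comparisons are named, at most 5. The 5 genes most like the 10 were ranked by Pearson correlation. Alternatives were quantile normalization, scaling to the median of detected probes, the authors' values, normexp background correction with an offset of 50, the mean of a gene's probes, dim probes kept in, a term for the slide, only the groups compared, no fold limit, and each array left out. Normexp used the median spot signal, because the files used here gave no mean signal.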

Additional observations from a re-analysis of the deposited data

Results flagged for a closer look

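The Pi response of WT roots differed from that of WT shoots by the test of the difference itself (limma, adjusted p below 0.05) for 6 combinations of a gene and a set, each with the smaller response in roots. In the *hy5-215* set these were *DGD1*, with -1.22 on the log2 scale (adjusted p = 0.0444), and *NPC4*, with -3.56 (adjusted p = 0.0102). In the *35S:BBX32-SRDX* set they were *MGD2*, with -1.92 (adjusted p = 0.0196), *SQD2*, with -1.18 (adjusted p = 0.00573), *NPC4*, with -3.50 (adjusted p = 0.0122), and *GDPD1*, with -1.83 (adjusted p = 0.02). *NPC4* passed in both sets, and in neither with normexp background correction, where it had -1.76 (adjusted p = 0.0786) and -2.07 (adjusted p = 0.0618). The offset of 50 in that setting shrinks rises from dim groups such as its Pi-sufficient shoots. The groups of 2 or 3 arrays are too small for a search for single outlying arrays.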

How the results depend on the processing

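Of the 95 called member changes in 22 comparisons, 0 changed direction under any alternative, 75 kept the call under all 8 alternatives other than leaving out arrays, and 78 kept it with each array left out. Called genes among the lines against the WT in roots numbered 2, with 8 when no fold limit was set and 5 in the blocked fit, where the replicate number (slide) is a block. The block also raised the calls from 0 to 2 for the difference in Pi response between line and WT in roots, from 0 to 2 for the lines against the WT in shoots, and from 6 to 14 for the difference between roots and shoots. Each gene that gained a call in that fit is given above with its adjusted p, the further ones in the Pi response of the lines, of WT shoots under R light and in R against B light. The block took away no call and changed no other. R against B light in roots had 1 call, which became 0 with the authors' values, 0 with no filter, 2 with normexp, 2 in the blocked fit and 3 with only the groups compared. The authors' values of the light set differ from the scanner values by more than a constant, and there *SQD2* kept 1.05 on the log2 scale with an adjusted p of 1. *SQD2* of *hy5-215* roots had an adjusted p of 0.0793 with only the groups compared, fewer arrays. *NPC4* of the organ difference was -1.76 (adjusted p = 0.0786) and -2.07 (0.0618) under normexp. Other causes were not tested.

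With single arrays left out, or replicate 1 of the shoots of the *hy5-215* set, the counts ran from 13 to 15 (main 14) for the Pi response of WT roots, 13 to 13 for roots of the lines, 15 to 18 (17) for WT shoots, 9 to 13 (12) for shoots of the lines, 1 to 3 for lines against the WT in roots and 0 to 0 in shoots, and 5 to 10 for the organ difference. The difference of Pi response between line and WT gave 0 to 0 in both organs. In the light set they ran from 13 to 15 in roots and 13 to 15 in shoots, 0 to 5 for R against B light in roots and 0 to 1 in shoots, and 0 to 1 and 0 to 0 for the difference of Pi responses.

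Among the 214 gene values recomputed in 22 of the comparisons, sign changes occurred in 9 uncalled ones. Of the other comparisons only counts were recomputed, and these moved too, from 2 to 4 higher genes for R against B light in Pi-sufficient roots with the authors' values and from 5 to 6 for *hy5-215* against the WT in Pi-sufficient roots with quantile normalization. With arrays left out, *NPC5* of Pi-deficient *hy5-215* roots against the WT ran from -0.27 to 0.047, and *DGD1* of *35S:BBX32-SRDX* roots from -0.076 to 0.0082. *NPC5* ran from -0.37 to 0.13 for the Pi response of WT shoots of the *35S:BBX32-SRDX* set and from -0.36 to 0.21 for that of the line, where normexp gave 0.80. For the line against the WT in Pi-deficient shoots it ran from -0.57 to 0.00073, where normexp gave 0.76. For the organ difference in the *hy5-215* set, *DGD2* was 0.030 with the authors' values, ran from -0.20 to 0.091 with arrays left out and was 0.052 without replicate 1 of the shoots. *GDPD1* was 0.058 there with quantile normalization and ran from -1.44 to 0.063. *DGD1* under R against B light in roots was -0.025 with the mean of probes. *PLDZ2* of the difference of Pi responses under R and B light in roots was -0.031 with quantile normalization and ran from -0.21 to 0.34. Signal over background limits *NPC4*, *NPC5* and the light set.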
